A study of Homo sapiens with 5 samples.

Results

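The ETS family is a group of transcription factors that share the ETS domain, a winged helix-turn-helix fold that binds DNA around a GGAA core. The 10 genes described here (ETS1, ETS2, ELF1, ELF3, ETV4, ETV5, ETV6, GABPA, ERF and EHF) are ETS genes other than ELK1, ELK3 and ELK4. They were taken by symbol from a list whose rule uses no measured value, though the genes were chosen with earlier results of these data known. All 10 were found among the 20026 genes with a single entry in the expression files. The ETS family has 28 human genes, so that the 10 stand beside 15 other ETS genes and the 3 genes of the ELK group.

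The cells were HCT116, an established line from a human colorectal carcinoma. Sequencing covered 2 samples transduced with the lentiviral pLKO.1 vector (the controls, or the vector) and selected with puromycin, and 3 samples with stable ELK4 knockdown, each carrying a different short hairpin RNA (shELK4_1, shELK4_2 and shELK4_3). All 5 samples are of the same cell line, none has a hairpin against another gene as control, and each hairpin was sequenced as a single sample. The labels do not say whether the samples came from separate cultures, so the p-values measure the spread between these samples, which may be technical.

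ETS factors bind closely related sites, and cells express many of them at the same time. Several are targets of the MAPK pathway: ERK phosphorylates ETS1 and ETS2 and strengthens their activity, drives the repressor ERF out of the nucleus, and raises the expression of ETV4 and ETV5. ELF3 and EHF belong to the epithelium-specific subgroup, GABPA acts on housekeeping and mitochondrial genes together with a GABPB subunit, and ETV6 is a repressor that forms polymers. The question addressed was how much of each factor HCT116 cells express, and whether that level differed when ELK4 was lowered by each hairpin.

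Expression was given as FPKM, the number of fragments scaled to the length of the transcript and to the mapped reads of the sample, which the authors obtained with Cufflinks. Read counts are not part of such values, so sequencing depth is unknown. FPKM summed to between 309139 and 319870 per sample. Of the colorectal epithelium markers (EPCAM, CDH1, KRT8, KRT18, KRT19 and VIL1), 5 of 6 had an FPKM of at least 1 in every sample, and VIL1 was at 0.054 or lower. Of 10 markers of blood, endothelium and fibroblasts, only COL1A1 reached an FPKM of 1, and CD3E, CDH5 and HBB were listed at 0 in every sample. The summed FPKM of the epithelial markers was 2615 and 2655 in the controls and between 1476 and 1989 in the knockdown samples, with KRT8, KRT18 and KRT19 lower in all 3. The part of this shift in the ETS values was not tested, and in bulk RNA fewer cells of a type cannot be told apart from less RNA per cell. The FPKM of ELK4, the targeted gene, was 30.1 to 38.7% of the control mean with the 3 hairpins (log2 fold change −1.26, standard error 0.12, adjusted p = 0.029 from limma). The adjusted p of ELK4 rose above 0.05 in 5 of 12 alternatives, to 0.114 with no FPKM limit, 0.483 and 0.342 without pLKO.1 replicate 1 or 2, and 0.0752 and 0.0779 without shELK4 replicate 1 or 3, while its log2 fold change stayed between −1.51 and −1.18.

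Promoter sequence from RefSeq (GRCh38.p14, 250 bases before to 50 after the start of a gene, 1 start per gene) was matched by symbol for 7 of the 10 genes, all but ETS1, ETV4 and ETV5. For GABPA, ELF1, ELF3 and EHF this start lies inside the longest span that GENCODE gives the gene. The letters CCGGAA, on either strand, mark a strong form of the ETS site and occur in 17.2% of all 35116 promoters. They were found in 1 of the 7 promoters, that of GABPA. The minimal core GGAA on either strand, which includes every CCGGAA, occurs in 95.5% of all promoters and in 6 of these 7, all but ELF1. The exact letters CCCCGCCCC on either strand, a strict form of the GC box, occur in 15.7% of all promoters and were found in 0 of the 7. Looser or shorter forms of the GC box were not searched. A CArG box, the site of SRF (in 1.29%), was also found in 0 of the 7. Outside the 10 genes, ETV1 and ELK4 itself carry CCGGAA in their windows. The start used for ETV1 also lies inside the longest span that GENCODE gives the gene. The 4 matches are shown with 12 bases before and after the match, 5′ to 3′ along the gene and with the match in capitals. They hold the letters of an ETS site before the start used for ETS genes described below. The lines give the gene and the location of the stretch.
GABPA (chr21:25734895-25734924, plus strand): cctccgctctacTTCCGGccctggctccgc
ETV1 (chr7:13990826-13990855, minus strand): gcggaacagctgCCGGAAacgtcttttggt
ELK4, farther from the start (chr1:205632179-205632208, minus strand): ggtcctggcgggTTCCGGacgggcgcctca
ELK4, nearer to the start (chr1:205632016-205632045, minus strand): gcagcccctcccCCGGAAgtgacgtgtagc

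The match of GABPA begins 65 bases before the start, that of ETV1 141 bases before it, and those of ELK4 185 and 22 bases before it. ERF, whose values separated the groups with the least spread among hairpins, has no CCGGAA in its window, whose bases are 77.0% G or C. The 250 bases before its start hold 1 GGAA, read as TTCC and printed in capitals.
ERF (chr19:42255129-42255378, minus strand): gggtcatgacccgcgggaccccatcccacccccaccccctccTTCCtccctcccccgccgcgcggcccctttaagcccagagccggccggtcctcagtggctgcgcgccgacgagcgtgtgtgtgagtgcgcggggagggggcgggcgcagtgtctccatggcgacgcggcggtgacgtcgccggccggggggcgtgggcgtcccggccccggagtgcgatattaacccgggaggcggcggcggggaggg

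These matches describe the letters of the windows, and binding was not measured in these samples.

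In the pLKO.1 controls, the 10 genes spanned a range of FPKM from 1.49 for ETV6 to 26.6 for ERF. FPKM is scaled to transcript length, so levels can be set side by side between genes. The order in the controls was ERF (26.6 ± 0.392 FPKM, SD, n = 2), ELF3 (17.0 ± 0.833), ETV5 (16.4 ± 0.161), ELF1 (14.1 ± 0.151), ETV4 (10.1 ± 0.976), GABPA (8.37 ± 0.143), ETS1 (6.41 ± 0.402), ETS2 (5.43 ± 0.450), EHF (1.68 ± 0.246) and ETV6 (1.49 ± 0.0784). The control values of neighbours in this order did not overlap, except those of ELF3 and ETV5 and those of EHF and ETV6, whose order is within the spread of the controls. ERF lay above 80.6% of tested genes in the controls, GABPA above 49.6%, and EHF and ETV6 above 9.21% and 7.50%. In the knockdown samples, 3 of these 9 neighbouring pairs kept values that did not overlap (ERF over ELF3, ETV5 over ELF1, and GABPA over ETS1).

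**Figure D1:**
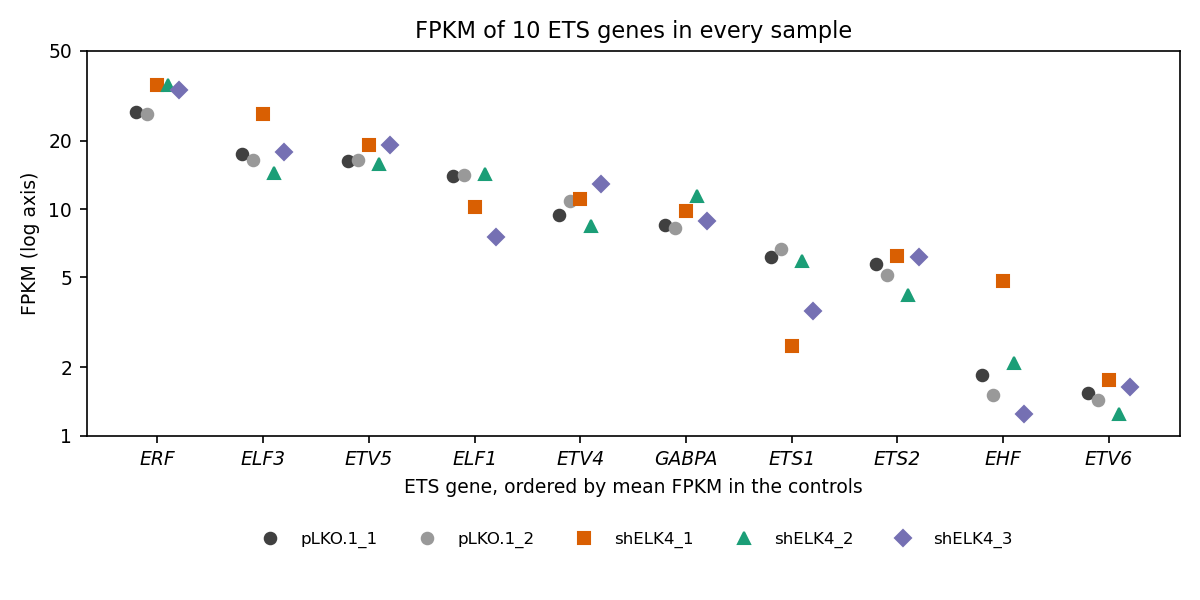
FPKM on a log axis of the 10 ETS genes in the 2 pLKO.1 samples (circles) and the 3 shELK4 samples (squares, triangles and diamonds), ordered by the control mean. The controls lie close together for each gene, ERF is above both controls in every knockdown sample, and ETS1, ELF1, ELF3 and EHF differ most from hairpin to hairpin.

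Across the whole ETS family, ELK3 had the largest share of the summed FPKM with the vector (14.8%), followed by ERF (14.1%), then ELK1, and after it ELF3 (9.02%), and ELK4 had 4.31%. The 10 genes together made up 57.2% and 57.1% of the family's FPKM with the vector, and 63.6%, 65.2% and 60.2% with shELK4_1, shELK4_2 and shELK4_3. The family's sum also holds ELK4 and ELK3, which were lower with every hairpin, so these shares do not follow the 10 genes alone. Their own summed FPKM was 107.9 and 107.3 with the vector, and 127.1, 113.0 and 112.5 with the hairpins in the same order. The family's summed FPKM was 188.2 ± 0.381 (SD, n = 2) with the vector and 186.6 ± 13.2 (SD, n = 3) with the hairpins, a difference within the spread among hairpins. These are sums of FPKM, and protein was not measured in these samples.

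The test took in 10780 genes, those that reached an FPKM of 1 in 2 or more samples, and all 10 ETS genes were among them. Values of log2(FPKM + 1) were fitted with limma, and p-values were adjusted over all of these genes by the Benjamini-Hochberg method. Fold changes are given on that log2 scale, where those of weakly expressed genes come out too small. None of the 10 had an adjusted p under 0.05 (0 of 10, limma), against 0.167% of all tested genes, and 1 of 10, ERF, had an unadjusted p under 0.05, against 16.2% of all tested genes. For 3 of 10 (ETS1, GABPA and ERF) the knockdown samples were all above or all below both controls, which held for 40.1% of tested genes. These shares are at or below the background. The median log2 fold change was 0.10 over the 10 genes and −0.0086 over all tested genes, and the median absolute log2 fold change was 0.19 and 0.13.

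The larger differences appeared with some hairpins and not with others. Against the mean of the controls, 3 of the 10 (ETS1, ELF3 and EHF) differed by at least 0.5 on the log2 scale in shELK4_1, where 7.57% of tested genes did. In shELK4_3 it was 2 of the 10 (ETS1 and ELF1), against 7.67% of tested genes. In shELK4_2 it was 0 of 10, against 8.91% of tested genes. Between the 2 controls, 0 of the 10 and 0.343% of tested genes differed by as much. Each hairpin is a single sample, so these counts carry no test.

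**Figure D2:**
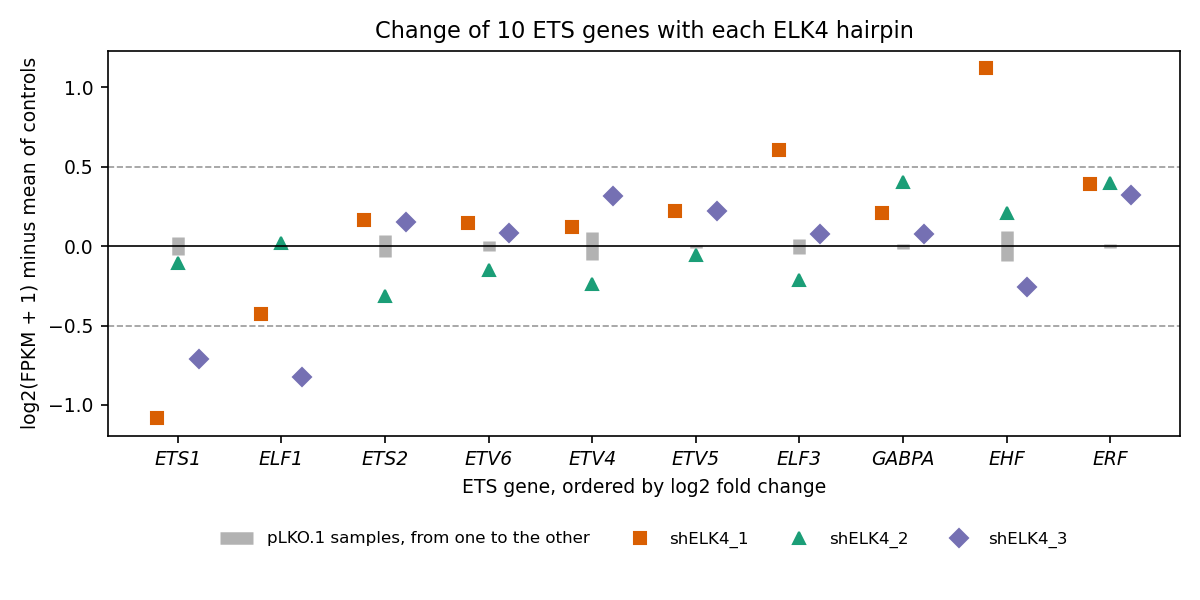
Difference in log2(FPKM + 1) between each shELK4 sample and the mean of the 2 pLKO.1 samples for the 10 ETS genes, ordered by log2 fold change. Grey bars span the 2 controls and dashed lines mark a change of 0.5. ERF has 3 points close together between 0.32 and 0.40, while ETS1, ELF1, ELF3 and EHF spread widely.

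Several of these genes varied widely from hairpin to hairpin. The SD of log2(FPKM + 1) among the 3 hairpins had a median of 0.28 over the 10 genes and 0.14 over all tested genes. For 4 of the 10, EHF, ETS1, ELF1 and ELF3, it was above that of 90% of tested genes. The controls showed no such spread, with a median SD of 0.06 over the 10 genes and 0.04 over all tested genes. For all 10 genes the SD among hairpins was larger than that between the controls. The medians over all tested genes, 0.14 and 0.04, went the same way, and the share of tested genes was not counted. The 2 controls carry the same vector, while the 3 knockdown samples do not carry the same hairpin. A hairpin effect and a sample effect cannot be told apart in this design.

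**Figure D3:**
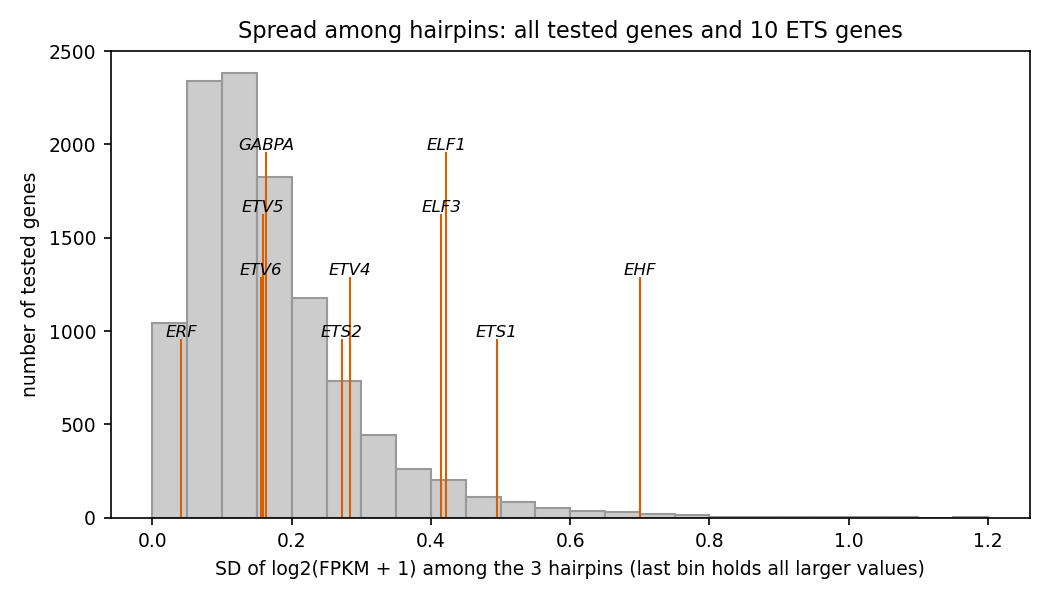
Histogram of the SD of log2(FPKM + 1) among the 3 hairpins over all tested genes, with the 10 ETS genes marked by lines of arbitrary height. ERF lies at the low end with 0.04, and EHF at 0.70 lies in the upper tail.

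ERF (ENSG00000105722, chromosome 19, 42247569 to 42255128, GRCh38, minus strand) encodes the ETS2 repressor factor, which represses ETS-dependent transcription and leaves the nucleus when ERK phosphorylates it. Its FPKM was 26.9 and 26.3 with the vector, 35.1 with shELK4_1, 35.3 with shELK4_2 and 33.5 with shELK4_3. All 3 knockdown samples lay above both controls, and the groups did not overlap. This was a log2 fold change of 0.37 (95% interval 0.17 to 0.57, unadjusted p = 0.0035, adjusted p = 0.130 from limma). Its SD among hairpins, 0.04, was larger than that of only 6.8% of tested genes, so ERF was among the genes on which the hairpins differed least. In a fit with a weight for each group, its adjusted p was 0.0444 from limma, the lowest of 12 alternatives, of which the highest was 0.938. Without pLKO.1 replicate 2 its unadjusted p was 0.0513. Exons of another annotated gene (ENSG00000268643) cover 5.54% of the exonic bases of ERF.

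GABPA (ENSG00000154727, chromosome 21, 25734570 to 25772460, plus strand) encodes the DNA-binding subunit of GABP, a regulator of ribosomal, mitochondrial and other housekeeping genes. Its FPKM was 8.47 and 8.27 with the vector, and 9.81, 11.4 and 8.88 with shELK4_1, shELK4_2 and shELK4_3. The knockdown samples were all higher than both controls, the last only slightly. The log2 fold change of 0.23 (95% interval −0.05 to 0.51, adjusted p = 0.386 from limma) did not pass the test. Exons of ATP5PF cover 12.1% of the exonic bases of GABPA, and 14.1% of its 50-base words also occur in the pseudogene GABPAP, so its reads could be split. Of its partner subunits, GABPB1 had an FPKM of 2.69 and 2.96 in the controls and of 2.60 to 2.76 in the knockdown samples. GABPB2, the other partner, had 1.21 and 1.01 FPKM with the vector and 1.13, 1.68 and 1.59 with shELK4_1, shELK4_2 and shELK4_3, so that its groups overlapped. A list of 9 GABP partners and targets (also TFAM, TFB1M, TFB2M, COX4I1, COX5B, SKP2 and YAP1) held 0 genes higher and 1 lower at an unadjusted p under 0.05 from limma, a share below the 16.2% of all tested genes. The lower gene was YAP1, the coactivator of the Hippo pathway, whose log2 fold change was −0.81 (adjusted p = 0.292). The median log2 fold change of the 9 was −0.06.

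ETS1 (ENSG00000134954, chromosome 11, 128458761 to 128587558, minus strand), the founding member of the family and a regulator of invasion and angiogenesis genes, had the largest log2 fold change of the 10 in size on the log2(FPKM + 1) scale. EHF came out larger with the replicate block and without shELK4 replicate 3 (0.66 against −0.59 in both), and as ratios of the mean FPKM the changes were 0.62 for ETS1 and 1.62 for EHF. The FPKM of ETS1 was 6.13 and 6.70 with the vector, 2.50 with shELK4_1, 5.90 with shELK4_2 and 3.53 with shELK4_3. The first and the last hairpin thus gave 38.9% and 55.1% of the control mean, and shELK4_2 gave 91.9%, just below both controls. The log2 fold change was −0.63 (95% interval −1.27 to 0.00412, unadjusted p = 0.0511, adjusted p = 0.312 from limma), which did not pass the test. It was −0.90 without shELK4 replicate 2 (adjusted p = 0.0561 from limma) and −0.41 without shELK4 replicate 1 (adjusted p = 0.380). The 3 tested genes whose values over the 5 samples lay nearest to those of ETS1, by Euclidean distance of log2(FPKM + 1) from the control mean, were COL12A1 (distance 0.21), SLC7A5 (0.25) and HIST1H2BK (0.27). COL12A1, a collagen, had 11.6 and 11.6 FPKM with the vector, and 4.37, 9.95 and 7.15 with shELK4_1, shELK4_2 and shELK4_3. SLC7A5, a transporter of large neutral amino acids, had 160.0 and 176 FPKM with the vector and 80.7, 168 and 120 with the hairpins in the same order. HIST1H2BK, a histone H2B gene, had 27.8 and 28.1 FPKM with the vector and 14.3, 24.6 and 14.5 with the hairpins.

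ETS2 (chromosome 21, 38805183 to 38824955, plus strand), the closest relative of ETS1, had values that overlapped between the groups. It had 5.75 and 5.11 FPKM with the vector and 6.19, 4.17 and 6.14 with shELK4_1, shELK4_2 and shELK4_3. The highest and the lowest of the 5 values were both from knockdown samples. Its log2 fold change was 0.0014 (95% interval −0.40 to 0.40, adjusted p = 0.998 from limma), and its sign changed with the processing.

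ELF1 (ENSG00000120690, chromosome 13, 40931924 to 41061440, minus strand) is a factor best known from lymphoid genes and from its binding to the retinoblastoma protein. It had 14.0 and 14.2 FPKM with the vector, 10.2 with shELK4_1, 14.3 with shELK4_2 and 7.52 with shELK4_3. As for ETS1, shELK4_2 lay near the controls and the other hairpins lay below them, here with the lower value in shELK4_3. The fitted log2 fold change was −0.41 (95% interval −0.96 to 0.14, adjusted p = 0.415 from limma), −0.63 without shELK4 replicate 2 (adjusted p = 0.0945) and −0.20 without shELK4 replicate 3 (adjusted p = 0.525). ELF2 and ELF4, its closest relatives, had FPKM values of 4.16, 4.48 and 3.14, and of 8.86, 10.1 and 9.71, with shELK4_1, shELK4_2 and shELK4_3, against control means of 4.27 and 9.50.

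ELF3 (ENSG00000163435, chromosome 1, 202007945 to 202017183, plus strand) is an epithelial factor that takes part in the differentiation of the intestinal epithelium. It had 17.6 and 16.4 FPKM with the vector, 26.3 with shELK4_1, 14.5 with shELK4_2 and 17.9 with shELK4_3. The value in shELK4_1 was 155% of the control mean, and that in shELK4_3 lay just above both controls. That in shELK4_2 lay below them, so that the groups overlapped. Limma gave a log2 fold change of 0.16 (95% interval −0.39 to 0.70, adjusted p = 0.766), and −0.07 without shELK4 replicate 1. Exons of ELF3-AS1 and of ENSG00000249007 cover 18.5% of the exonic bases of ELF3, and whether reads were counted by strand is not given in the sources used here.

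EHF (ENSG00000135373, chromosome 11, 34621093 to 34663288, plus strand), the other epithelium-specific factor, had the widest spread among the 10. Its FPKM was 1.85 and 1.50 with the vector, 4.81 with shELK4_1, 2.09 with shELK4_2 and 1.24 with shELK4_3. The value in shELK4_1 was 287% of the control mean and that in shELK4_3 was 73.8%, so that the hairpins lay on either side of the controls. The SD of 0.70 among hairpins was larger than that of 99.5% of tested genes. The log2 fold change was 0.36 (95% interval −0.52 to 1.24, adjusted p = 0.666 from limma) and rested on shELK4_1, since it was −0.0242 without that sample. ELF3 and EHF were thus both highest in shELK4_1, the sample in which ETS1 was lowest. EPCAM and CDH1, which mark epithelial cells, had their highest values in shELK4_1 as well (166 and 23.1 FPKM), against 156 and 157 FPKM for EPCAM and 20.5 and 20.3 FPKM for CDH1 with the vector. The other expressed markers of that list were lower in shELK4_1 than with the vector, with KRT8 at 792 FPKM against a control mean of 1071, KRT18 at 397 against 636 and KRT19 at 611 against 750.0. The part of these markers in the ELF3 and EHF values was not tested.

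ETV4 and ETV5 belong to the PEA3 group, whose expression follows ERK activity in many cell types. ETV4 (chromosome 17, 43527844 to 43579620, minus strand) had 9.44 and 10.8 FPKM with the vector and 11.1, 8.40 and 12.8 with shELK4_1, shELK4_2 and shELK4_3. For ETV4 the log2 fold change was 0.07 (95% interval −0.34 to 0.48, adjusted p = 0.879 from limma). ETV5 (chromosome 3, 186046314 to 186110318, minus strand) had 16.3 and 16.5 FPKM with the vector and 19.3, 15.8 and 19.3 with the hairpins in the same order. Its log2 fold change was 0.13 (95% interval −0.15 to 0.40, adjusted p = 0.612 from limma). Both genes were lowest in shELK4_2 and both groups overlapped.

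ETV1, the third gene of the PEA3 group and not among the 10, had FPKM values of 1.70 and 1.73 in the controls, and of 4.21, 4.72 and 7.15 with shELK4_1, shELK4_2 and shELK4_3. All 3 hairpins lay above both controls, at 246 to 417% of their mean. The log2 fold change was 1.20 (95% interval 0.74 to 1.66, unadjusted p = 0.000556, adjusted p = 0.0759 from limma), which missed the threshold over all tested genes. The adjusted p was 0.00817 in the fit with a weight for each group, and up to 0.752 in the other alternatives. The level of ETV1 in the controls was near that of EHF. In shELK4_3 the level of ETV1 was near that of ELF1 in the same sample (7.52 FPKM). There ELF1 was at its lowest, against a control mean of 14.1.

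The list of 7 genes known to control the PEA3 group was described beside it. CIC, the repressor of ETV1, ETV4 and ETV5, had 7.42 and 7.74 FPKM with the vector and 9.85, 11.2 and 10.2 with shELK4_1, shELK4_2 and shELK4_3. All knockdown samples were higher than the controls (log2 fold change 0.41, adjusted p = 0.134 from limma). ATXN1, a partner of CIC, had 3.69 and 3.38 FPKM with the vector and 2.92, 1.91 and 2.59 in the knockdown samples. ATXN1L, of the same list, went the other way, with 9.26 and 9.51 FPKM with the vector and 10.3, 10.4 and 11.3 in the knockdown samples. TRIB2, a scaffold protein that binds the ubiquitin ligase COP1, had 4.51 and 4.46 FPKM with the vector and 9.23, 5.71 and 8.83 in the knockdown samples. COP1 had 3.01 and 2.92 FPKM with the vector and 2.80, 2.74 and 2.38 in the knockdown samples. At an unadjusted p under 0.05 from limma, 2 of the 7 were higher (CIC and TRIB2) and 1 was lower (ATXN1), against 16.2% of all tested genes in either direction, and 0 of 7 had an adjusted p under 0.05.

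A second list held 8 genes whose expression is used with that of ETV4 and ETV5 as a readout of ERK activity, and 7 of them were tested. At an unadjusted p under 0.05 from limma, 2 of the 7 were higher (PHLDA1 and SPRY4, a sprouty inhibitor of receptor signaling) and 1 was lower (CCND1, the gene for cyclin D1), against 16.2% of all tested genes in either direction. PHLDA1 had 49.5 and 51.7 FPKM with the vector and 77.0, 58.3 and 61.0 with shELK4_1, shELK4_2 and shELK4_3. CCND1 had 370 and 376 FPKM with the vector and 196, 150 and 217 with the hairpins in the same order (log2 fold change −1.01, adjusted p = 0.0743 from limma). DUSP6, an ERK phosphatase, was at 52.4% of the control mean in shELK4_2, and at 107% and 101% in shELK4_1 and shELK4_3. The other genes of the list did not share one direction in shELK4_2, where CCND1 was at 40.1%, SPRY2 at 86.7%, EPHA2 at 98.6%, DUSP4 at 106%, PHLDA1 at 115% and SPRY4 at 116% of the control mean. The median log2 fold change of the 7 genes was −0.07, and 0 of 7 had an adjusted p under 0.05.

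ETV6 (chromosome 12, 11649674 to 11895377, plus strand), a repressor best known from the translocations of leukemia, had the lowest control mean of the 10. Its control values overlapped those of EHF, the next higher gene. ETV6 had 1.55 and 1.44 FPKM with the vector and 1.76, 1.25 and 1.64 with shELK4_1, shELK4_2 and shELK4_3. The groups overlapped. Its log2 fold change was 0.03 (95% interval −0.26 to 0.31, adjusted p = 0.935 from limma).

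Of the 15 other ETS genes, 4 were tested (ETV1, ETV3, ELF2 and ELF4), and 11 stayed below an FPKM of 1 in every sample. Of these 11, ETV3L, FLI1, FEV and SPIC were listed at 0 in every sample. ETV3, a repressor related to ERF, had 8.99 and 9.13 FPKM with the vector and 8.09, 8.23 and 7.26 in the knockdown samples, with no overlap between the groups (log2 fold change −0.19, adjusted p = 0.385 from limma). At an unadjusted p under 0.05 from limma, 1 of the 4 was higher (ETV1) and 0 were lower, against 16.2% of all tested genes in either direction. ELF5 and FLI1, the chromosomal neighbours of EHF and ETS1, were at or below 0.127 FPKM in every sample. In the ELK group, ELK3 also varied widely among hairpins, and its knockdown samples all lay below both controls, the first only slightly. It had 27.8 and 28.0 FPKM with the vector and 26.7, 8.57 and 20.1 with shELK4_1, shELK4_2 and shELK4_3. ELK1 had 18.7 and 18.9 FPKM with the vector and 16.8, 21.0 and 23.7 in the knockdown samples, and neither gene passed the test.

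**Figure D4:**
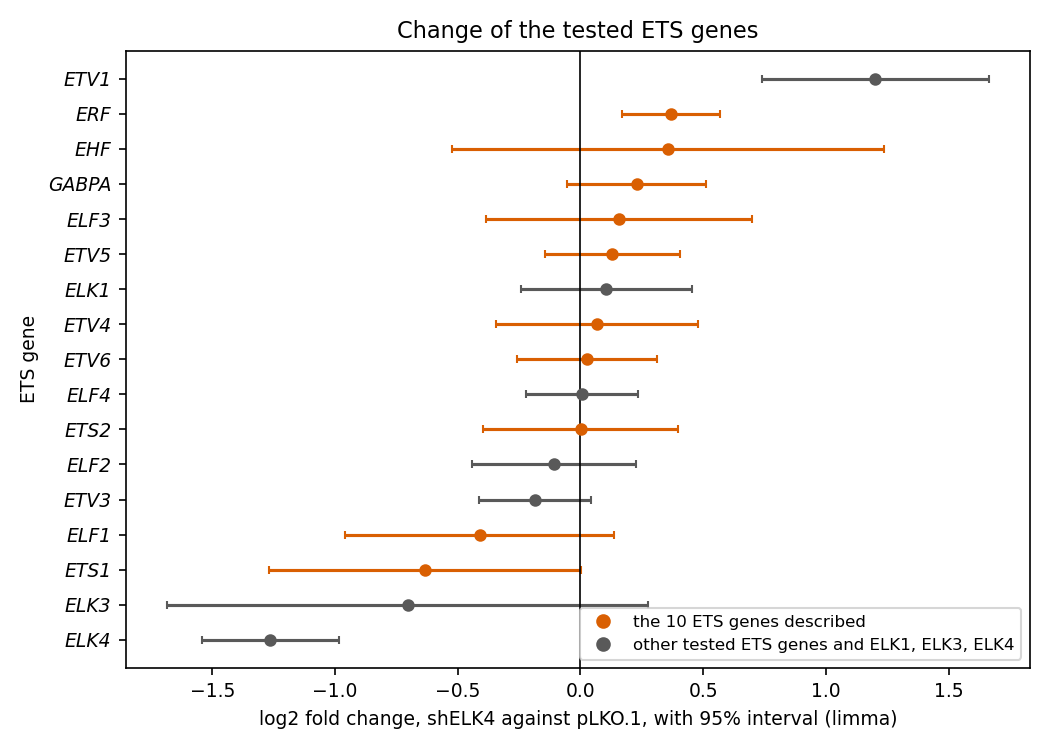
Log2 fold change (shELK4 against pLKO.1, limma on log2(FPKM + 1)) with its 95% interval for the 17 tested ETS genes, with the 10 described genes in orange and the others in grey. The interval of ERF lies above 0 among the 10, as does that of ETV1 among the others, and that of ELK4 lies below 0.

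Genes for proteases and other invasion factors with known ETS sites in their promoters made a last list of 8 genes, of which PLAU, PLAUR and MMP14 were tested. None of the 3 passed at an unadjusted p under 0.05 from limma (0 of 3). PLAU, the urokinase gene, had 10.7 and 9.66 FPKM with the vector and 10.2, 14.9 and 6.06 with shELK4_1, shELK4_2 and shELK4_3, so that its hairpins lay on either side of the controls. MMP14 had 3.37 and 3.46 FPKM with the vector and 3.95, 4.20 and 3.70 in the knockdown samples. The other 5 (MMP1, MMP7, MMP9, MMP13 and PTGS2) stayed below an FPKM of 1 in every sample.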

How the data were processed

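RNA from HCT116 cells was poly(A)-selected and sequenced by the authors, who deposited 1 FPKM value per gene and sample, computed with Cufflinks relative to all mapped reads. The submitters' processing notes name Trimmomatic 0.36, HISAT2 2.0.5, Cufflinks 2.2.1 and HTSeq 0.9.1, and the genome build and strand setting are not given in the sources used here. Of 20030 entries, 4 with repeated names were dropped. Groups were taken from the sample labels.

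The 10780 genes that reached an FPKM of 1 in 2 or more samples were fitted with limma 3.58.1 (R 4.3.3) on log2(FPKM + 1), with condition as the term, a trended prior and Benjamini-Hochberg adjustment, after the fit had been tested on simulated data. The genes and lists were chosen with earlier results of these data known. Named genes are the 10 ETS genes, the ELK group, the genes of each list with an unadjusted p under 0.05 (up to 4, otherwise the 2 with the highest expression) and the 3 nearest to ETS1. Other genes of the lists were named after their values had been seen. Positions and exon overlaps are from GENCODE release 44 on GRCh38. Alternatives were a pseudocount of 0.1, no FPKM limit, the replicate block, scaling by median of ratios, quantile normalization, group weights, no trend, and each sample left out in turn.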

Additional observations from a re-analysis of the deposited data

How the results depend on the processing

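An unadjusted p under 0.05 (limma) was found for 1 of the 10 ETS genes. The number was 4 with a weight for each group (ETS1, ELF1, GABPA and ERF) and 0 to 4 with each sample left out in turn, with 0 without pLKO.1 replicate 2, 2 without shELK4 replicate 3 (GABPA and ERF) and 4 without shELK4 replicate 2 (ETS1, ELF1, ETV5 and ERF). With the replicate block it was 3 (ETS1, ERF and EHF), in a fit where shELK4_3 is alone in its block and so does not inform the fold change. The numbers mark separate samples, and the deviations of same-numbered samples had correlations of 0.0776 and 0.0225 over genes. The number with an adjusted p under 0.05 was 0, and 1 (ERF) with a weight for each group. Leaving out a control leaves 1 sample in that group, which is then assumed to vary like the knockdown samples. The counts of genes past a change of 0.5 per hairpin were the same with a pseudocount of 0.1, with median-of-ratios scaling and with either control alone as reference.

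The log2 fold changes of ETS1, ELF1, ETV5, GABPA and ERF kept their sign in all 12 alternatives, with ERF between 0.35 and 0.42 and ETS1 between −0.90 and −0.41. Those close to 0 changed sign. ETS2 was −0.0015 with a pseudocount of 0.1, −0.0748 with the replicate block, −0.000801 with median-of-ratios scaling, −0.0249 with quantile normalization, and between −0.0793 and 0.158 with each sample left out. ETV4 was −0.0594 with the replicate block and between −0.0594 and 0.22 with each sample left out. ETV6 was −0.0015 with the replicate block, −0.0063 with quantile normalization, and between −0.0329 and 0.115 with each sample left out. ELF3 and EHF were negative only without shELK4 replicate 1, with ranges of −0.0683 to 0.341 and −0.0242 to 0.664 over the samples left out. The cause of these changes was not tested. With 5 samples and no read counts, differences of the size seen between hairpins limit what can be called.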
